A study of Schizosaccharomyces pombe with 4 samples.

Results

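Of 1522 annotated noncoding RNAs (ncRNA genes) in the total RNA table of fission yeast, 489 are described here: antisense long noncoding RNAs (aslncRNAs) that carry no XUT. A XUT (Xrn1-sensitive unstable transcript) is an RNA segment that the study called from its rise in cells without Exo2. The call also needed a minimum length, no overlap with a coding sequence, a ratio above 2 and an adjusted p under 0.05 (DESeq). A member can therefore be higher without Exo2 and carry no XUT. Members were selected on the measured WT density and, through the XUT calls, on the measured ratio. A member shares no nucleotide with a XUT on its own strand, lies over at least 50 nt of a gene transcribed the opposite way, and has a mean WT density under 2 tag/nt (reads per nucleotide after the study's normalization). No XUT lay on the strand of 961 annotated noncoding RNAs, 503 of these were antisense to a gene, and the limit on the WT density removed 14. The members lie on chromosomes I (222), II (173) and III (94), and face 530 genes in 567 pairs. Because XUTs were called from the ratio between *exo2*Δ and WT, and the limit used the WT densities, the densities and ratios of the members are given below as a description, with no test. The genes opposite did not enter the rule, and they were tested.

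RNA was sequenced for strain YAM2394 (WT, 2 biological replicates) and for YAM2397 (*exo2*Δ::kanMX4, also 2). Both strains are h+ and carry *ade6-M210*, *ura4-D18* and *leu1-32*, and cultures in YES, a rich medium, were taken at mid-log phase. Each group is a single strain. The strand of the RNA was kept in the libraries, so that reads of an lncRNA and of the gene opposite were counted by strand. The share of reads placed on the wrong strand was not measured here. *exo2* (SPAC17A5.14), the deleted gene, was at 0.488 and 0.458 in WT against 0.663 and 0.636 tag/nt (log2 ratio 0.46, adjusted p = 0.00167 with limma). The deposited values therefore do not show the loss of the gene. Per the study's methods, the deletion strain was obtained from a commercial supplier and checked by genomic PCR and by northern blot. Since the density was not lower with the deposited scaling, the second group is called "the *exo2*Δ-labelled libraries". Every direction below rests on that label. Values of replicates 1 and 2 are given below for WT first and, after "against", for the *exo2*Δ-labelled libraries.

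Exo2, the fission yeast counterpart of Xrn1, is the cytoplasmic exoribonuclease that degrades decapped RNAs from their 5′ end. Noncoding RNAs that reach the cytoplasm can be degraded by it, while the nuclear exosome degrades others from their 3′ end. Antisense RNAs have been studied in yeasts because transcription across a gene's promoter can lower the expression of that gene, and because many genes of meiosis have antisense RNAs in vegetative cells. In fission yeast, the protein Mmi1 binds a hexamer of the type UUAAAC in meiotic and some noncoding RNAs and directs them to nuclear degradation.

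The first set of sequences shows the annotated starts of aslncRNAs. The second shows how the annotated aslncRNAs run over the start codon of the gene opposite. Where the transcripts start was not mapped here. The sequences were read by identifier from the RefSeq annotation of ASM294v3 and are written 5′ to 3′ on the strand of the lncRNA. The coordinates of features in the table are those of ASM294v2, and 470 of the 472 members matched by identifier have the same coordinates in both. The first 60 bases are given for *tos1*, for the 2 members with the highest ratios among those read deeply, and for the one with the lowest.
*tos1*, SPNCRNA.69, chrIII:1547928-1547987, + strand: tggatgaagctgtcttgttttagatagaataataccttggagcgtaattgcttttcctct
SPNCRNA.1079, chrI:5389615-5389674, + strand: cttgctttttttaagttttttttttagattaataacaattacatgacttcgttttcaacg
SPNCRNA.1446, chrII:1565793-1565852, − strand: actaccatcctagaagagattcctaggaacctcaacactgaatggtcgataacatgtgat
SPNCRNA.1230, chrIII:1795741-1795800, + strand: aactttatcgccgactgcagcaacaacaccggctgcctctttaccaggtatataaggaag

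The following 63 bases span the start codon of the gene opposite. Read on the strand of the lncRNA, that codon is the triplet in capitals, the reverse complement of ATG.
*tos1* across the start of *rec7*, chrIII:1549037-1549099, + strand: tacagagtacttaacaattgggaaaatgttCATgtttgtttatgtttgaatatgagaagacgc
SPNCRNA.1446 across the start of *meu25*, chrII:1563872-1563934, − strand: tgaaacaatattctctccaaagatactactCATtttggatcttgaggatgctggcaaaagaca
SPNCRNA.1382 across the start of *ubc4*, chrII:715303-715365, − strand: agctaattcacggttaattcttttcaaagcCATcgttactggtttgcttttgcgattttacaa

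The hexamer TTAAAC was searched in the first 300 bases of the members and of all annotated noncoding RNAs. It was found in 70 of 463 members (15.1%) and in 221 of 1343 of all (16.5%). Its reverse complement GTTTAA, which overlaps it in the run GTTTAAAC, was found in 14.9% and 15.1%. SPNCRNA.132, one of the lncRNAs opposite the meiotic gene *rec7*, holds 2 copies over its length, at bases 271 to 276, inside the searched window, and at bases 522 to 527, beyond it. The first is shown in capitals with 20 bases on either side as an example of the match.
SPNCRNA.132, chrIII:1547027-1547072, + strand: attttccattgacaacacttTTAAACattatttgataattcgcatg

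The libraries held 46964618 to 51019820 reads on features, of which the members took 54008 to 72437. A member had a median of 27 to 30 reads in a library. No read fell on 4 members in any library, none fell on 10 in either WT library, and 54 had 3 reads or fewer in both WT libraries. Ratios are therefore given for the 459 members whose 4 libraries together held 10 reads or more. The members are 76 to 4786 nt long (median 1152 nt), and a median of 858 nt, or 86.6% of the lncRNA, lay over the gene opposite. The gene row spanned 154 of them entirely. Members can share reads: 44 overlapped another member on the same strand, and 89 (18.2%) overlapped a gene row on their own strand. The mating type and meiosis markers were low in all libraries but differed between the groups. The summed density was 0.102 to 0.123 in WT against 0.253 to 0.265 tag/nt for the markers of mating type P (2 of 2 genes higher), and 0.226 to 0.230 against 0.845 to 0.912 tag/nt for those of type M (3 of 4 higher). It was 0.643 to 0.711 against 1.59 to 1.67 tag/nt for the markers of meiosis and sporulation (4 of 10 tested higher, 1 lower). Of all 5079 genes tested, 54.8% were higher, with a median log2 ratio of 1.08. The medians of the markers were 1.17 for type P, 1.95 for type M and 1.18 for meiosis and sporulation. All these ratios depend on the scaling, as given below. None of these markers was at 0 in a library, and their part in the results was not tested.

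The members were rare RNAs in WT, which the limit on WT density favours. With the deposited scaling, their densities were slightly higher in the *exo2*Δ-labelled libraries. Their median density was 0.0230 and 0.0243 in WT against 0.0296 and 0.0296 tag/nt. Their log2 ratio had a median of 0.58 over the 459 members, with 0.63 and 0.50 in replicates 1 and 2, and quartiles of 0.04 and 1.10. The median over all 5079 genes tested was 1.08. The median of the members was thus 0.50 lower, a gap that no scaling can move, since each shifts all log2 ratios by one constant, and that is a description only, because lncRNAs with a XUT were left out by the rule. The median of the members changed sign with the scaling (0.21 with total reads, −0.62 with the median of ratios and −0.60 with TMM factors). In bulk libraries, fewer cells with an RNA and less RNA per cell cannot be told apart.

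Both *exo2*Δ-labelled libraries lay above both WT libraries for 289 members and below them for 67, against 88.5% and 5.88% of all features tested, and the groups overlapped for 103. A mean ratio over 2 with groups apart was found for 127 members, against 62.3% of all features tested, and a mean ratio under 0.5 with groups apart for 29, against 1.07% of all features. Nothing is read from these counts, because the absence of a XUT is part of the rule. Of the 196 members read deeply (50 or more normalized reads on average), 48 were over 2-fold higher and 8 over 2-fold lower with groups apart, against 59.7% and 0.519% of all features read as deeply.

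Some members over 2-fold higher shared their strand with a gene. A gene row on the same strand overlapped 39 of these 127 (30.7%), against 18.2% of all members. It overlapped 1 of the 29 that were over 2-fold lower. Among deeply read members, it overlapped 32 of the 48 (66.7%) against 69 of all 196 (35.2%). The median log2 ratio was 0.91 for the 88 members with such a gene and 0.49 for the 371 without one. The call of a XUT required no overlap with a coding sequence and a high ratio. The rule therefore bears on these shares and medians, which are a description only. How reads in the shared stretch were counted is not given in the sources used here, and their part in these ratios was not tested.

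The ratio set the members apart from annotated aslncRNAs that overlap a XUT, as the rule requires. The 414 XUT-overlapping aslncRNAs with a WT density under 2 tag/nt were at 0.0345 and 0.0384 tag/nt in WT and at 0.133 in both other libraries (median log2 ratio 1.70). The 436 annotated noncoding RNAs with neither a XUT nor a gene opposite were at 0.0206 and 0.0237 in WT against 0.0282 and 0.0294 tag/nt. Their median log2 ratio was 0.64 over the 328 with enough reads.

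**Figure D1:**
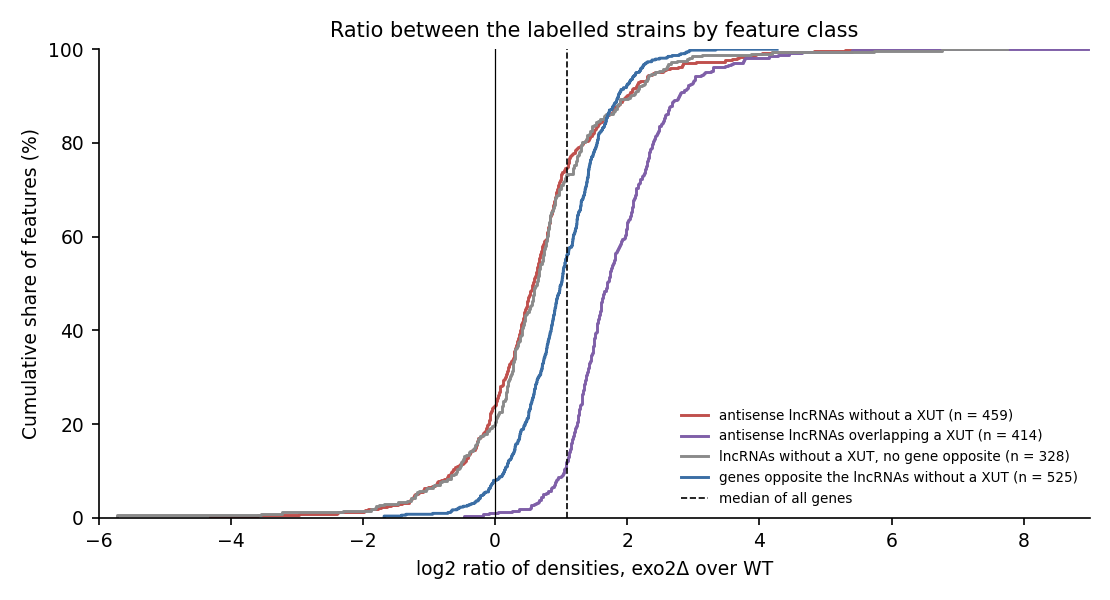
Cumulative share of features (%) by log2 ratio of densities in the *exo2*Δ-labelled libraries over WT, for the 459 aslncRNAs without a XUT, the 414 with one, 328 noncoding RNAs with no gene opposite and the 525 genes opposite the first group. The curve of the first group runs close to that of the noncoding RNAs with no gene opposite, with medians of 0.58 and 0.64, and lies left of the median of all genes (dashed line, 1.08).

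Just inside the limit on WT density were 3 members that all overlap a gene on their own strand. SPNCRNA.88 was at 1.81 and 1.77 in WT against 8.77 and 8.86 tag/nt. Its 119 nt lie wholly within the row of *plb2*, a phospholipase B gene of the same strand with a log2 ratio of 2.03, so its reads cannot be told from those of *plb2*. SPNCRNA.1127 was at 1.82 and 1.57 tag/nt in WT against 2.66 and 2.99, and shares 67 nt with *swp1*, which encodes an oligosaccharyltransferase subunit. SPNCRNA.742 was at 1.29 and 1.22 tag/nt against 2.73 and 2.69, and shares 67 nt with *met26*, the methionine synthase gene. Just outside the limit were SPNCRNA.1531, SPNCRNA.1623 and SPNCRNA.964, with mean WT densities of 2.24, 3.15 and 5.33 tag/nt.

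Among deeply read members, the highest ratio was found opposite *rad2*, which encodes the flap endonuclease of DNA replication and repair. SPNCRNA.1079 (chrI:5389615-5390903, + strand) lies wholly within the span of *rad2*. Its density was 0.0845 and 0.0651 in WT against 0.945 and 0.938 tag/nt (log2 ratio 3.66). It shares 63 nt with SPAC3G6.05, a gene of its own strand whose density was 3.33 and 3.40 in WT against 2.68 and 2.82 tag/nt. *rad2* itself was at 0.122 and 0.136 tag/nt against 0.107 and 0.123, and the groups overlapped (log2 ratio −0.17, standard error 0.15, adjusted p = 0.310 with limma).

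SPNCRNA.1446 (chrII:1563622-1565852, − strand) covers the start of *meu25*, a gene named for its rise in meiosis. It was at 0.115 and 0.0990 in WT against 0.741 and 0.776 tag/nt (log2 ratio 2.82). It shares 54 nt with *ask1*, a kinetochore (DASH complex) gene of its own strand with a log2 ratio of 1.42. In WT the lncRNA was 262.9% as dense as *meu25*. *meu25* was at 0.0354 and 0.0461 tag/nt in WT against 0.0649 and 0.0682 (log2 ratio 0.72, standard error 0.22, adjusted p = 0.0173), below the 2-fold threshold. With the median of ratios and TMM factors, its log2 ratio was −0.49 and −0.47.

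SPNCRNA.1317, within *mal1*, the maltase gene, was at 0.0602 and 0.0642 in WT against 0.437 and 0.349 tag/nt (log2 ratio 2.65). *mal1* was higher too (log2 ratio 1.56, adjusted p = 3.29e-05), and was not called with the median of ratios or TMM factors (0.36 and 0.38). SPNCRNA.1634, within SPBC13G1.05, was at 0.0407 and 0.0447 tag/nt against 0.218 and 0.205 (log2 ratio 2.31). It shares 66 nt with *isd11*, an iron-sulfur cluster gene of its own strand with a log2 ratio of 1.79.

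Among deeply read members, those with the lowest ratios lay opposite genes of unlike function. SPNCRNA.1230 (chrIII:1795741-1796894, + strand) was at 0.121 and 0.119 in WT against 0.0224 and 0.0229 tag/nt (log2 ratio −2.40). It lies across the start of *zta1*, a quinone oxidoreductase gene, and the end of *ist1*. *zta1* was at 2.64 and 2.62 tag/nt against 3.10 and 3.42 (log2 ratio 0.31, adjusted p = 0.00465). With total reads, the median of ratios and TMM factors, the log2 ratio of *zta1* was −0.06, −0.90 and −0.88. SPNCRNA.1656 (chrII:4014998-4016577, + strand) was at 0.102 and 0.171 in WT against 0.0290 and 0.0385 tag/nt (log2 ratio −1.98). Both genes opposite had ratios above 1. *scp1*, the sterol sensor that escorts the SREBP transcription factor, rose from 1.50 and 1.45 to 4.12 and 4.49 tag/nt (log2 ratio 1.55, adjusted p = 3.30e-06), a call lost with the median of ratios and TMM factors (0.34 and 0.36). The nucleoporin gene *nup120* went from 0.392 and 0.361 to 0.647 and 0.606 tag/nt (log2 ratio 0.73, adjusted p = 2.20e-04), below the 2-fold threshold.

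SPNCRNA.1382 covers the start of *ubc4*, which encodes a ubiquitin-conjugating enzyme. It was at 0.0617 and 0.0884 in WT against 0.0141 and 0.0249 tag/nt (log2 ratio −1.97), and its WT density was 0.203% of that of *ubc4* (36.2 and 37.9 tag/nt). SPNCRNA.687, within *cph1*, a gene of the Clr6 histone deacetylase complex, was at 0.217 and 0.289 tag/nt against 0.102 and 0.0695 (log2 ratio −1.57). SPNCRNA.1673, across the start of *abp2*, which encodes a protein that binds replication origins, was at 0.0300 and 0.0478 tag/nt against 0.0181 and 0.0134 (log2 ratio −1.28). In each of these 5 lncRNAs, both WT libraries lay above both other libraries.

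**Figure D2:**
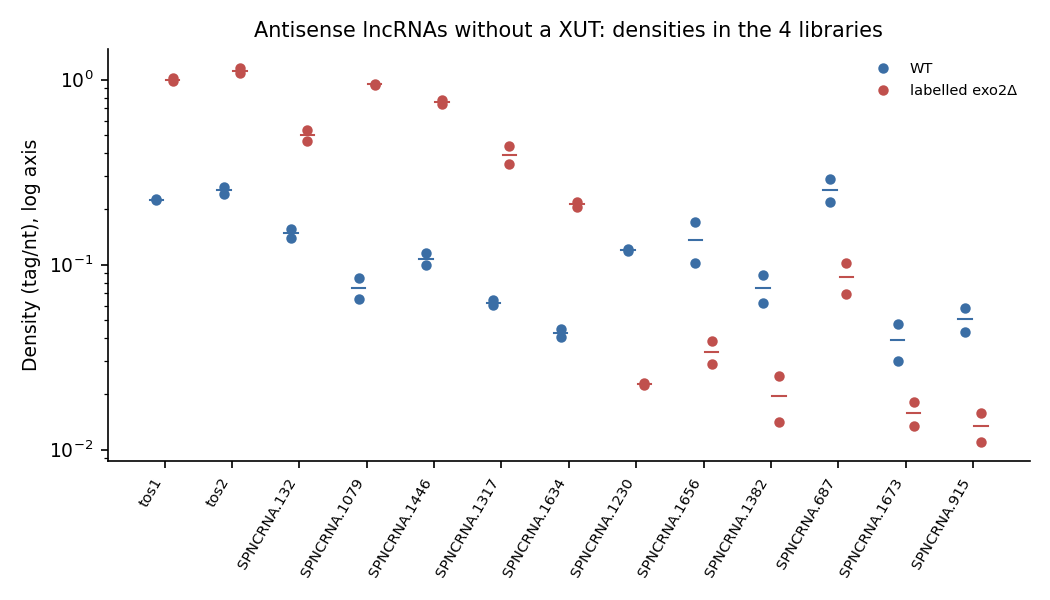
Density (tag/nt, log axis) of 13 aslncRNAs without a XUT in each of the 4 libraries. Points are libraries (blue, WT, and red, labelled *exo2*Δ) and short lines are means of 2. The groups lie apart for each lncRNA drawn, with SPNCRNA.1079 highest over WT (log2 ratio 3.66) and SPNCRNA.1230 furthest below it (−2.40).

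*rec7* (chrIII:1547051-1549069, − strand), which encodes a protein needed for the DNA breaks of meiotic recombination, was the gene with the most members opposite, 4. *tos1* (SPNCRNA.69), one of 2 lncRNAs named for transcription from the strand opposite *rec7*, covers its start and was at 0.224 and 0.225 in WT against 0.978 and 1.03 tag/nt (log2 ratio 2.16). *tos2* (SPNCRNA.131), which lies within *tos1*, was at 0.240 and 0.264 tag/nt against 1.08 and 1.16 (log2 ratio 2.15). SPNCRNA.132, over the end of *rec7*, was at 0.155 and 0.140 tag/nt against 0.534 and 0.464 (log2 ratio 1.76). SPNCRNA.1203 spans the other 3 and was at 0.213 and 0.205 tag/nt against 0.590 and 0.638 (log2 ratio 1.55). The 4 values are therefore not independent. SPNCRNA.1203 also shares 67 nt with *tol1*, a gene of its own strand with a log2 ratio of 0.69.

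The gene itself was read at low depth. *rec7* had 29 and 23 reads in WT against 25 and 42 (0.0121 and 0.0103 against 0.0145 and 0.0239 tag/nt). Both *exo2*Δ-labelled libraries lay above both WT libraries, but the difference did not pass the test (log2 ratio 0.73, standard error 0.43, adjusted p = 0.143). Its sign turned with the median of ratios and TMM factors (−0.46 and −0.44).

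**Figure D3:**
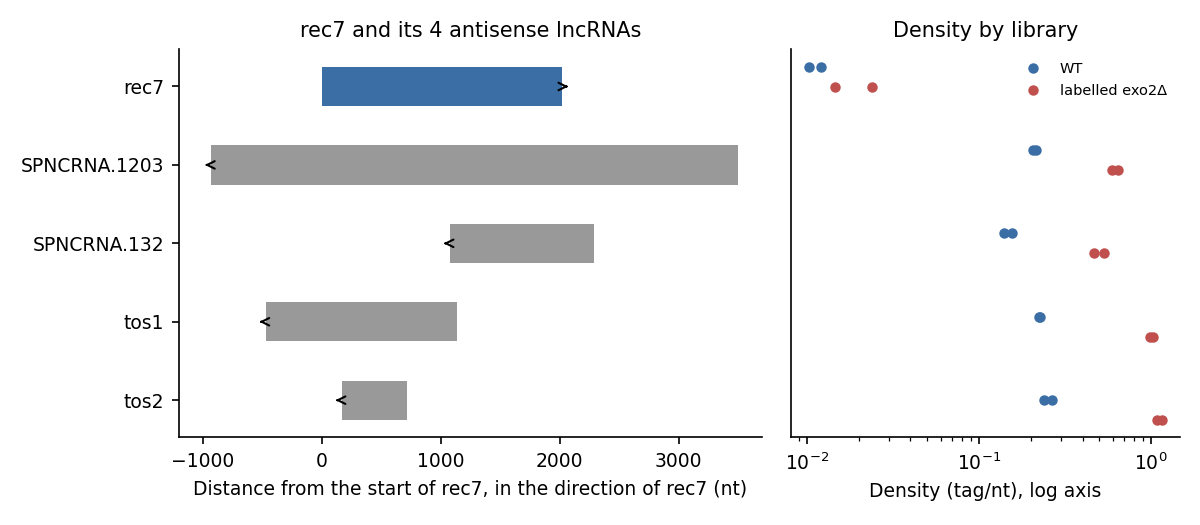
Left, *rec7* (blue) and its 4 antisense lncRNAs (grey), drawn to scale by distance from the start of *rec7* in nt, with arrows for the direction of transcription. Right, the density of each (tag/nt, log axis) in the 4 libraries. The lncRNAs sit at 0.140 to 0.264 tag/nt in WT and 0.464 to 1.16 tag/nt in the *exo2*Δ-labelled libraries, and *rec7* at 0.0103 to 0.0239 tag/nt in all 4.

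Taken per length, most members were far below the gene opposite. The limit on WT density, part of the rule, removed the densest lncRNAs. It caps the share of the gene's density, and the cap is tightest opposite dense genes. The shares are therefore given as a description of the members only. The lncRNA had a median of 5.65% of the WT density of its gene over 486 members, 64 members were denser than their gene, and 133 were under 1% of it. For the 29 members opposite genes of at least 10 tag/nt, the median share was 0.0861% and the lowest was 0.00837%. Whether reads of the gene placed on the wrong strand add to such low shares was not tested. Spearman's rho between the WT densities of lncRNA and gene was −0.18, and that between their log2 ratios was 0.13 (456 pairs, each lncRNA with the gene it overlaps most) or 0.16 without members that share their strand with a gene (370 pairs). These are descriptions across pairs, which share 4 libraries and are not independent.

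The genes opposite had a median density of 0.398 and 0.402 in WT against 0.829 and 0.863 tag/nt. Their median log2 ratio was 1.01 over the 525 genes tested (0.97 and 1.04 in replicates 1 and 2), next to 1.08 for all genes. By a ratio above 2 and an adjusted p under 0.05 with limma, 261 genes (49.7%) were higher, against 54.8% of all genes, and by a ratio under 0.5 and the same p, 3 (0.571%) were lower, against 0.276%. The count of higher against lower genes depended on the scaling. It was 154 against 8 with total reads (30.9% and 1.24% of all genes), 22 against 63 with the median of ratios (4.90% and 10.1%), and 25 against 56 with TMM factors (5.18% and 9.71%).

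The 471 genes opposite XUT-overlapping aslncRNAs had lower densities in WT (median 0.222 and 0.236 tag/nt), a median log2 ratio of 1.20, and 275 (58.4%) that were higher. The 2 sets share 15 genes and all 4 libraries, and the difference between them was not tested. An antisense XUT lay elsewhere on 44 of the 530 genes.

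The position of the lncRNA on the gene divided the members into 192 over the gene start, 97 over the gene end, 47 over the whole gene and 153 inside it. The share of genes that were higher was 44.6% (83 of 186) for the gene start, 55.8% (53 of 95) for the gene end, 42.2% (19 of 45) for the whole gene and 53.7% (80 of 149) for lncRNAs inside the gene. The differences between these classes were not tested. The median log2 ratio of the genes was 0.95, 1.07, 0.85 and 1.04 in the same order, and that of the lncRNAs 0.57, 0.44, 0.82 and 0.60.

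The genes with the largest rises were low in WT, and the lncRNAs opposite them had smaller ratios. Choosing genes by their ratio favours both. *amt3*, an ammonium transporter gene, rose from 0.0174 and 0.0189 to 0.213 and 0.160 tag/nt (log2 ratio 3.34, standard error 0.22, adjusted p = 9.84e-06), while SPNCRNA.859 within it was at 0.0127 and 0.0146 against 0.0269 and 0.0154 tag/nt. *hsp3101*, a heat shock gene of the DJ-1 family, rose by a log2 ratio of 2.95 (0.0256 and 0.0317 to 0.202 and 0.241 tag/nt). It faces SPNCRNA.1099 (log2 ratio 0.72) and SPNCRNA.1100 (1.48). *utp16*, which encodes a protein of the U3 snoRNP, rose from 0.259 and 0.338 to 2.09 and 2.32 tag/nt (log2 ratio 2.90), and SPNCRNA.575 within it had a log2 ratio of 0.05 on few reads. SPAC11D3.18c rose from 0.149 and 0.157 to 1.14 and 1.20 tag/nt (log2 ratio 2.93), and SPNCRNA.611 over its end had a log2 ratio of 1.35. *meu26*, a gene named for its rise in meiosis, had 1 and 5 reads in WT against 31 and 43 (log2 ratio 4.27, standard error 0.81, adjusted p = 0.00181). SPNCRNA.827, opposite *meu26*, was far denser than it, at 0.134 and 0.140 in WT against 0.348 and 0.386 tag/nt.

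The 3 genes that fell encode unlike proteins, and each was called lower with every scaling tried. *pan3*, the regulatory subunit of the Pan2-Pan3 deadenylase that shortens poly(A) tails, fell from 4.28 and 3.33 to 1.25 and 1.11 tag/nt (log2 ratio −1.68, standard error 0.13, adjusted p = 1.76e-05). SPNCRNA.915, which overlaps its end by 144 nt, was at 0.0581 and 0.0431 tag/nt in WT against 0.0157 and 0.0110, a log2 ratio of −1.92 on a mean of 16.7 normalized reads. *mug106*, a gene upregulated in meiosis by its name, fell from 27.2 and 27.2 to 10.3 and 10.1 tag/nt (log2 ratio −1.42, adjusted p = 2.53e-06). SPNCRNA.1056 over its start was at 0.0336 and 0.0446 tag/nt against 0.0238 and 0.0260 (log2 ratio −0.63). *alr2*, an alanine racemase gene, fell from 0.236 and 0.272 to 0.0888 and 0.111 tag/nt (log2 ratio −1.35, adjusted p = 1.49e-04). SPNCRNA.1309 over its start was at 0.0321 and 0.0393 tag/nt against 0.0521 and 0.0555 (log2 ratio 0.59).

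**Figure D4:**
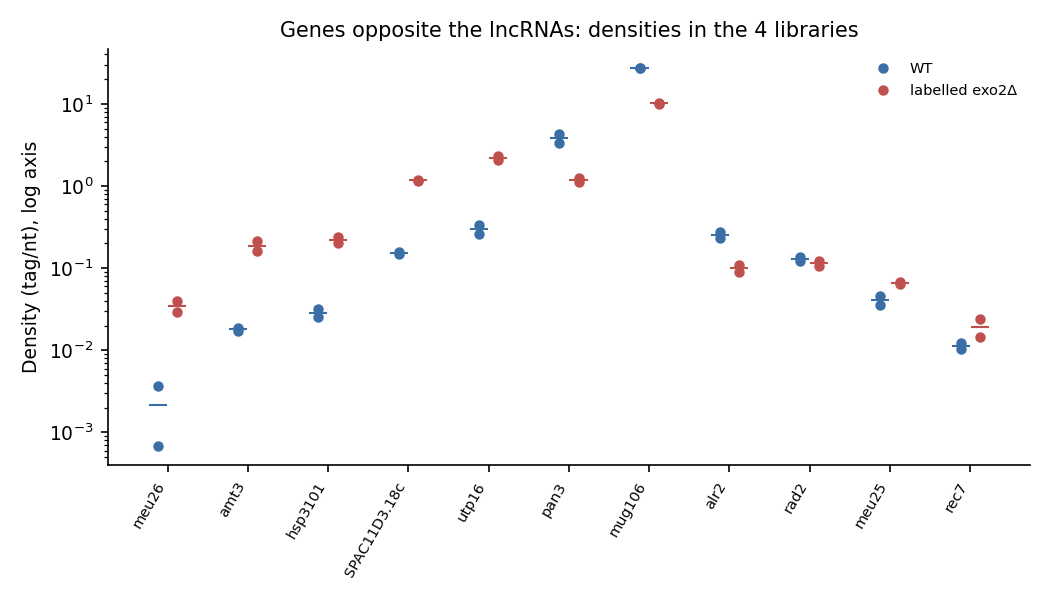
Density (tag/nt, log axis) of 11 genes opposite aslncRNAs without a XUT in each of the 4 libraries. Points are libraries (blue, WT, and red, labelled *exo2*Δ) and short lines are means of 2. The first 5 genes rose, *pan3*, *mug106* and *alr2* fell, the groups overlap for *rad2*, and *meu25* and *rec7* were under the threshold.

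With the deposited scaling, in 106 of 532 pairs with both ratios the lncRNA had a ratio under 1 and the gene a ratio above 1. In 23 the reverse was found. Among the 226 pairs in which both were read deeply, these counts were 42 and 14. They go by direction alone, with no threshold on size. Directions depend on the scaling, and the pairs were counted with the deposited one only. The rule left out lncRNAs with a XUT, which favours low lncRNA ratios, and all genes tested had a median log2 ratio of 1.08. Nothing is therefore read from the imbalance between these counts. In one of the 23, SPNCRNA.1628, over the start of *set6*, a gene with a SET domain of histone methyltransferases, was at 0.0196 and 0.0213 in WT against 0.0680 and 0.0756 tag/nt (log2 ratio 1.81). *set6* was at 0.334 and 0.364 tag/nt against 0.231 and 0.236 (log2 ratio −0.58, adjusted p = 0.00132). This did not reach the 2-fold threshold with the deposited scaling, and with the median of ratios and TMM factors *set6* passed it (−1.78 and −1.76).

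**Figure D5:**
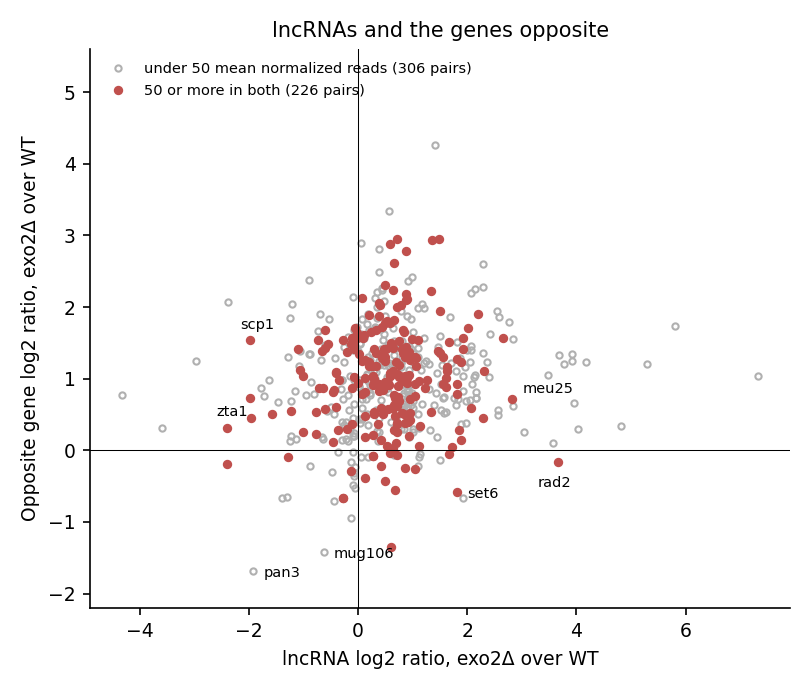
Log2 ratio of each lncRNA (x axis) and of the gene opposite (y axis), *exo2*Δ-labelled libraries over WT, for 532 pairs. Filled points are the 226 pairs in which both had 50 or more normalized reads on average. Most genes lie above 0 whatever the ratio of their lncRNA (Spearman's rho 0.13 over 456 pairs), and *rad2*, *set6*, *scp1* and *zta1* are among the pairs furthest apart.

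Genes of meiosis were the largest of the lists examined. Of 17 genes with a meiotic symbol opposite members, 8 were higher and 1, *mug106*, was lower, next to 85 of 144 higher and 2 lower among all genes with such symbols. With total reads, 5 were higher and 1 lower. With the median of ratios and TMM factors 3 were higher and 2 lower, *mug106* and *mcp60*. Calls over all genes with such symbols were counted with the deposited scaling only. *mug121* rose from 0.208 and 0.187 to 1.25 and 1.27 tag/nt (log2 ratio 2.68, adjusted p = 2.21e-06). *mcp4*, which encodes a meiotic coiled-coil protein, rose by a log2 ratio of 2.24 (20 and 27 reads in WT against 81 and 85). *rec24*, another gene of meiotic recombination, rose by a log2 ratio of 2.08 (30 and 47 reads against 119 and 122). *mcp60*, which entered the list by its symbol, encodes the mitochondrial chaperonin Hsp60 and was at 33.5 and 32.6 against 31.3 and 33.7 tag/nt.

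Of the 11 ribosomal protein genes opposite members, 0 were called higher or lower with limma. Their log2 ratios lay between −0.56 and 0.27 (median −0.17, next to −0.18 over all 131). At an adjusted p under 0.05 and a ratio of any size, 8 of the 11 passed. At an unadjusted p under 0.05, 4 were higher and 5 were lower. With the median of ratios and TMM factors, 9 and 8 of the 11 were called lower, next to 10.1% and 9.71% of all genes. These scalings shift every log2 ratio by −1.21 and −1.19, and calls over all 131 were not counted with them. The median of the 11 was close to that of all 131, so nothing particular to the 11 is read from these counts. The lncRNAs opposite were at 0.00546 to 1.19 tag/nt in WT, and the genes at 5.56 to 90.7 tag/nt.

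Of 4 genes of RNA decay, *pan3* was lower and *ski7* was higher, and *pan2* and *ski3* did not reach the 2-fold threshold (log2 ratios 0.78 and 0.87), next to 26 of 52 higher and 1 lower among all genes of that list. *ski7*, whose budding yeast counterpart links the exosome to the Ski complex, rose from 0.0643 and 0.0622 to 0.179 and 0.190 tag/nt (log2 ratio 1.54, adjusted p = 4.43e-05). SPNCRNA.1071, which overlaps the beginning of *ski7* by 128 nt, was at 1.14 and 1.34 tag/nt in WT against 0.764 and 0.723 (log2 ratio −0.73). It shares 64 nt with the heat shock gene *hsp9* on its own strand, which was at 7.85 and 9.52 tag/nt against 5.90 and 5.83.

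Of 3 cell cycle genes, the cyclin genes *puc1* (log2 ratio 1.84) and *cig2* (1.02) were higher, and *cdc2*, the cyclin-dependent kinase gene, was below the 2-fold threshold (0.63), next to 8 of 13 higher and 0 lower among all genes of that list. *cig2* rose from 0.497 and 0.435 to 0.952 and 0.939 tag/nt, and its call was lost without WT replicate 2 (log2 ratio 0.93). The 2 genes that entered the transporter list by symbol were the hexose transporter gene *ght4*, which rose by a log2 ratio of 1.42 (adjusted p = 4.09e-05), and the acid phosphatase gene *pho4* (0.36), next to 25 of 39 higher and 1 lower over the whole list. The only stress gene opposite a member was *ntp1*, the trehalase gene (log2 ratio −0.22), which was called lower with the median of ratios and TMM factors, next to 12 of 21 higher and 1 lower among all stress genes listed. With the median of ratios and TMM factors, *rec24*, *ski7*, *ght4*, *puc1* and *cig2* were no longer called.

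Several genes carried more than 1 member. *mre11*, which encodes the nuclease of the MRN complex of DNA break repair, faced 3 members that differed along the gene. SPNCRNA.646 over its start was at 0.291 and 0.267 in WT against 1.00 and 1.01 tag/nt (log2 ratio 1.85), and it overlaps *mug121* on its own strand. SPNCRNA.647 inside the gene was at 0.227 and 0.245 against 0.181 and 0.182 (−0.38). SPNCRNA.648 over the end was at 0.0477 and 0.0490 against 0.0375 and 0.0513 (−0.14). *mre11* was at 0.422 and 0.406 against 0.513 and 0.499 tag/nt (log2 ratio 0.29, adjusted p = 0.0150).

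*adh1*, the alcohol dehydrogenase gene, also faced 3 members. It was at 45.8 and 40.5 tag/nt in WT against 28.7 and 25.5 (log2 ratio −0.67, adjusted p = 2.93e-04), above the 0.5 limit for a call. With the other scalings it was called lower (−1.04, −1.88 and −1.86). SPNCRNA.2001 and SPNCRNA.2002, which share 3895 nt and had the same number of reads in each library, were at 0.0861% and 0.0875% of its WT density, with a log2 ratio of −0.28. SPNCRNA.1208 over its start had a log2 ratio of 1.93 on a mean of 16.6 normalized reads.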

How the data were processed

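The authors mapped stranded, rRNA-depleted paired reads with TopHat to ASM294v2 and deposited, per feature and library, a density signal (tag/nt) normalized on sn(o)RNA levels. The columns that sum both replicates were not used. The rule for overlapping features is not given in the sources used here. U3B snoRNA (SPSNRNA.07) had a log2 ratio of −0.15 (adjusted p = 0.245).

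Density multiplied by length came out in whole steps, 1 step size a library, for 100% of values (tolerance 0.1), which gave the reads (48671182 and 46964618 in WT, 50222633 and 51019820 in the *exo2*Δ-labelled pair) and the filter. The limit of 3 reads, used above to count members with few reads in WT, was not a filter. log2(density + 1.55e-04) was compared with limma 3.58.1 (R 4.3.3) for 8826 of 9139 features with at least 10 reads over 4 libraries, with trended variances, genotype as the only term, and Benjamini-Hochberg adjustment over all features tested. The plan was limma for densities and a count test for whole-number counts. The unit is a density, so limma was used. A call needed a ratio above 2 or under 0.5 and an adjusted p under 0.05. An exact permutation test of 2 against 2 libraries cannot pass 0.05. Fold changes on this scale understate those of low features. The fit was tested on simulated data. Overlaps, TMM factors and medians of ratios were computed in Python 3.11.15 (numpy 2.4.6, pandas 2.3.3), and figures were drawn with matplotlib 3.10.9.

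The members and gene lists were chosen with earlier results of these data known. Features named were members with a symbol, the 3 with the highest WT density, the 3 just outside the limit, the 5 highest and 5 lowest log2 ratios among members at 50 or more mean normalized reads, the 5 largest rises and falls among called genes, the 3 pairs furthest apart in each direction, called genes of the lists (up to 4 a list), and *exo2* and U3B. Others were chosen after their values were seen. Gene lists were meiotic, ribosomal protein, RNA decay, stress, transporter and cell cycle genes, with markers of mating type and meiosis. Alternatives covered scaling, filter, pseudocount, overlap, WT limit, replicate block and leaving out each library. NET-seq and other data were not analysed here.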

Additional observations from a re-analysis of the deposited data

How the results depend on the processing

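The scaling was the only choice that moved the counts of genes called. With total reads, 154 genes opposite were higher and 8 lower, the median log2 ratio of the lncRNAs was 0.21 and that of the genes 0.64. With the median of ratios these were 22, 63, −0.62 and −0.20, and with TMM factors 25, 56, −0.60 and −0.18. These scalings shift every log2 ratio by −0.37, −1.21 and −1.19. Without a filter, with a pseudocount 10 times the smallest nonzero value, with an overlap of at least 200 nt, with a WT limit of 1 or none, and without lncRNAs overlapping a same-strand gene, both counts stayed within 1.5 times and both medians moved by less than the spread between replicates. Leaving out each library in turn gave 253 to 265 genes higher, 3 lower each time, and medians of 0.51 to 0.63 for the lncRNAs and 0.98 to 1.02 for the genes. The replicate block gave 261 and 3. The labels do not say that a replicate number marks a shared culture or day, and same-numbered libraries deviated together at r = 0.283 over 5447 features with at least 100 reads in each library. Of 220 values of 22 named genes under an alternative, 193 kept direction and side of the threshold, 12 lost the call, 4 gained it and 11 reversed. Reversed with the median of ratios and TMM factors were *meu25* (−0.49 and −0.47), *nup120* (−0.47 and −0.45), *zta1* (−0.90 and −0.88, and −0.0627 with total reads), *cig2* (−0.18 and −0.16) and *rec7* (−0.46 and −0.44). *cig2* also lost its call with total reads (0.65) and without WT replicate 2 (0.93), *scp1* lost it with both other scalings (0.34 and 0.36), and *rad2* was called lower with both (−1.38 and −1.35). Depth limited 30 of 489 members, which had under 10 reads over the 4 libraries.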

Other observations

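Members with a symbol of their own had unlike ratios. nc-tco1 (SPNCRNA.600) was at 0.298 and 0.236 in WT against 0.543 and 0.556 tag/nt in the *exo2*Δ-labelled pair (log2 ratio 1.05). It shares 2010 nt with *tco1* on its own strand, which had a log2 ratio of 1.07, so the reads of both cannot be told apart. The prl lncRNAs are named as polyadenylated RNAs without long reading frames. prl42 (SPNCRNA.42) was at 0.0942 and 0.0865 tag/nt in WT and at 0.0288 and 0.0102 tag/nt in the other pair (log2 ratio −2.38, on a mean of 24.6 normalized reads). prl54 (SPNCRNA.54), opposite the checkpoint gene *hus1*, was at 0.0538 and 0.0805 tag/nt against 0.128 and 0.115 (log2 ratio 0.88). prl20 (SPNCRNA.1649), opposite *dpm3*, was at 0.213 and 0.237 tag/nt against 0.322 and 0.356 (log2 ratio 0.59). prl34 and prl40 had log2 ratios of −0.07 and 0.56 with groups that overlapped.

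The 14 aslncRNAs without a XUT above the limit on WT density had mean WT densities of 2.24 to 181.6 tag/nt and log2 ratios of −0.61 to 0.24. The densest was *rrk1*, the RNA of RNase P, at 177.6 and 185.6 tag/nt in WT against 182.7 and 186.8.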
